A study of Mus musculus with 28 samples.

Results

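The RNAs described here were the fragments of cytosolic tRNA-Leu, tRNA-Ser and tRNA-SeC found in mouse blood. They were chosen by name, as the rows of the expression table that begin with these 3 isotypes, and comprised 49 of the 408 tRNA rows and of the 80668 RNAs in all. Of these rows 26 belonged to tRNA-Leu, 22 to tRNA-Ser and 1 to tRNA-SeC. A row stands for 1 tRNA gene copy, and copies were also summed by anticodon, which gave 11 of the 51 tRNA anticodons. Blood came from 14 wild-type female C57BL/6N mice aged 2 (n = 3), 6 (n = 4), 8 (n = 3), 12 (n = 2) or 18 (n = 2) months, which had received no treatment other than anesthesia. Platelet-depleted plasma of each mouse was ultracentrifuged into a pellet enriched for extracellular vesicles (EVs) and an EV-depleted supernatant holding free circulating RNA, called plasma below, and small RNA of both was sequenced without pooling (28 libraries). The pellet is an enrichment, so that other particles that sediment at this speed may be present in it. The plasma labels of 2 mice of 2 months each name both mice, so that their pairing rests on the replicate number.

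Most tRNAs have a short variable loop between the anticodon arm and the T arm. In mammals the cytosolic tRNAs for leucine, serine and selenocysteine instead carry a long variable arm that folds into a stem and are called class II tRNAs. Seryl-tRNA synthetase reads this arm and not the anticodon, and it charges tRNA-SeC as well, whose serine is then converted to selenocysteine and delivered to UGA codons of selenoprotein mRNAs. Cells cleave tRNAs into shorter fragments, for instance with angiogenin under stress, and such fragments are known as abundant small RNAs of serum and of EVs.

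The length and the arm can be seen in the gene sequences. Of 47 RefSeq genes of tRNA-Leu and tRNA-Ser (GRCm38.p6), 42 were 82 or 83 bases long, against a median of 72 bases for 356 genes of other tRNAs. The other genes ranged from 70 to 96 bases, and 18 of them had at least 80. The 4 tRNA-Leu genes with anticodon CAA spanned 105 to 107 bases in the genome, and the gene with anticodon GGA was annotated with 73 bases. The bases of 1 tRNA-Ser gene with anticodon GCT, read from a GENCODE M21 transcript that contains it, are shown because they hold the long arm. The gene, n-TSgct5, lies at chr13:22050686-22050767 on the minus strand and is 82 bases long. It is written 5′ to 3′ as the tRNA reads it, and capitals mark the anticodon (positions 34 to 36) and then the variable arm (positions 44 to 57, 14 bases), counted from 1 at the 5′ end.
n-TSgct5: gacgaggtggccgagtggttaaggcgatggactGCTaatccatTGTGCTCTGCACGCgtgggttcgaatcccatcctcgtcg
The table of counts does not pair its rows with RefSeq gene symbols.

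Reads were shared among rows. Of the 49 rows, 22 fell into 6 sets whose counts were identical in all 28 libraries, such as the 6 copies tRNA-Ser-AGA-2-1 to 2-6 or the 5 copies tRNA-Leu-CAG-1-1 to 1-5, and 27 rows had counts of their own. The counts of all members were whole numbers. A read thus appears to have been counted in full on each copy that it matched, although the rule was not given. An anticodon sum would then count it several times. Between anticodons, tRNA-Ser-AGA-1-1 and tRNA-Ser-TGA-2-1 agreed within 1% in every library (ratio 0.998 to 1.00, with 522 to 27461 counts for the first row). They were the 1 pair among 528 pairs of distinct rows to do so. Values of these rows are therefore not independent measurements of 2 tRNAs, and the files do not say which part of a tRNA the reads covered.

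Total counts per library lay between 928651 (6 months replicate 1) and 23905651 for plasma, and between 4764338 and 52753818 for EVs. Fragments of tRNAs made up 43.8% to 78.8% of the counts in plasma and 11.3% to 51.4% in EVs, and the share was lower in EVs in all 14 mice. The share of rRNA was higher in EVs in all 14 mice, with medians of 43.1% in EVs and 11.7% in plasma. Marker miRNAs of red cells (5 of 5 listed found) had a median of 1035 RPM in EVs and 1118 RPM in plasma, those of platelets (3 of 4 found) 168 and 163 RPM, those of liver (4 of 4) 68.9 and 43.0 RPM and those of muscle (5 of 5) 2.39 and 2.42 RPM. RPM is the value deposited by the study, the count of reads scaled by 1 number per library. Summed over all RNAs it came to 930340 to 2901540 in plasma libraries and 1034533 to 3809005 in EV libraries. All shares are of counts, in which a read can appear on several rows. In plasma the tRNA share was 72.1% to 78.8% at 12 and 18 months and 43.8% to 66.9% at younger ages. In EVs it was 40.0% to 51.4% and 11.3% to 41.9%. The tRNA share thus differed between the fractions and was higher at 12 and 18 months in both. In EVs the ranges of these and of the younger ages overlapped slightly. Each comparison between fractions and each age trend below therefore depends on what a count is set against. The part of these shares in the results was not tested.

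Class II fragments were a small part of the tRNA fragments. In plasma tRNA-Leu took 1.72% ± 0.563 (SD, n = 14) of all tRNA counts, tRNA-Ser 0.860% ± 0.235 and tRNA-SeC 0.0197% ± 0.00753. In EVs the shares were 2.53% ± 0.715, 1.28% ± 0.451 and 0.129% ± 0.0754. In comparison tRNA-Pro, the isotype with the highest share, took 30.0% in plasma and 26.7% in EVs. Ordered by share among 23 isotypes, tRNA-Leu stood in place 12 in plasma and 8 in EVs, tRNA-Ser in 14 and 13, and tRNA-SeC in 21 and 20.

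The 3 isotypes together took 1.36% to 4.52% of tRNA counts in plasma (median 2.53%) and 2.64% to 5.60% in EVs (median 3.82%). The EV library had the higher share in all 14 mice, although the ranges of the fractions overlapped. The mean log2 ratio of EV over plasma was 0.62 ± 0.32 (SD, n = 14 mice), a 1.54-fold higher share, and is given as a description. In bulk samples the number of cells that release such fragments and the amount released per cell cannot be told apart. tRNA-Leu was higher in 14 of 14 mice, tRNA-Ser in 11 of 14 and tRNA-SeC in 14 of 14. Of the 23 isotypes, tRNA-SeC had the highest mean log2 ratio (2.56), and tRNA-Leu (0.57) and tRNA-Ser (0.56) held places 4 and 5, after tRNA-Met (1.41) and tRNA-Trp (0.89). As a share of all counts the direction turned, with a mean log2 ratio of -0.41 ± 0.48 and a higher value in EVs in 2 of 14 mice. In RPM it was -0.34 ± 0.48 with 3 of 14 mice. The smallest gaps were seen in 12 months replicate 2 (3.07% in EVs, 2.92% in plasma) and 6 months replicate 1 (3.65% and 3.42%).

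**Figure D1:**
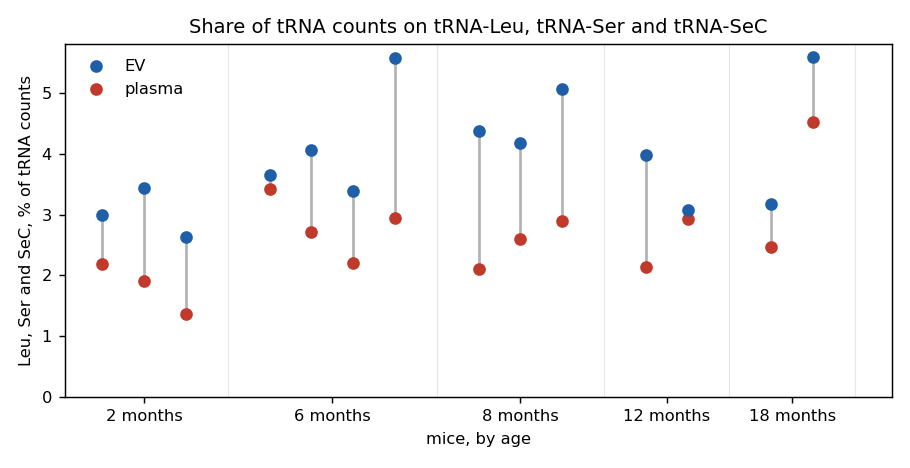
Share of all tRNA counts (in %, y axis) on tRNA-Leu, tRNA-Ser and tRNA-SeC together, for each of 14 mice (x axis, by age). Blue points are EV libraries, red points plasma libraries, and a grey line joins both of 1 mouse. The EV point lies above the plasma point in every mouse, by the least in 12 months replicate 2.

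EVs and plasma were compared across all features with edgeR's quasi-likelihood test, with age as a covariate and TMM scaling, which sets the bulk of all RNAs equal between libraries. This main fit treated the 2 libraries of a mouse as independent and left their pairing out. Of the 11 anticodons, 1 was called higher and 0 lower in EVs at an adjusted p under 0.05, and 2 had an unadjusted p under 0.05, as did 28.6% of all features. Over all 21967 features 9.99% were called higher and 7.30% lower, so that the count of members called is near this background in the main fit. With the mouse as a block 4 of 11 were called higher, as given below. The median log2 change (EV over plasma) was 0.19 over the 11 anticodons, -0.31 over the 40 other tRNA anticodons and -0.015 over all features. Among the other tRNA anticodons 2 were called higher (tRNA-Met-CAT and tRNA-Gly-TCC) and 0 lower, with 5 at an unadjusted p under 0.05.

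The called anticodon was tRNA-SeC-TCA, the selenocysteine tRNA. Its RPM was 88.3 at the lowest, 175 at the median and 512 at the highest of 14 plasma libraries, and 153, 491 and 2359 in the 14 EV libraries. EV values thus reached far above the plasma range but overlapped with it, and within mice the EV value was higher in 13 of 14. The exception was 2 months replicate 1, with 208 RPM in EVs and 260 RPM in plasma. The log2 change was 2.27 ± 0.47 (SE, adjusted p = 0.000838), the first place among all 51 tRNA anticodons. As a share of tRNA counts it rose from 0.0183% at the median of plasma to 0.113% at the median of EVs, was higher in EVs in all 14 mice and differed 5.89-fold on average. The counts behind these values were 104 to 4248 in plasma and 703 to 32673 in EVs. The lowest of them, 104 counts, came from the shallowest library, and without the mouse of that library the log2 change was 2.22 (adjusted p = 0.00274).

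By age, tRNA-SeC-TCA in plasma was at 260, 166 and 483 RPM in the 3 mice of 2 months, 177, 88.3, 88.8 and 185 RPM at 6 months, 222, 98.1 and 173 RPM at 8 months, 131 and 512 RPM at 12 months and 100.4 and 404 RPM at 18 months. In EVs of the same mice, in the same order, it was at 208, 976 and 1209 RPM, then 485, 273, 153 and 489 RPM, then 647, 321 and 494 RPM, then 894 and 2359 RPM, and 426 and 1331 RPM. The mouse with the highest value at 12 months was the same in both fractions, as was that at 18 months. In plasma all ages overlapped, and in EVs both 12-month mice lay above the mice of 6 and 8 months and within or above the range of 2 months.

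Among the tRNA-Leu anticodons, tRNA-Leu-AAG and tRNA-Leu-TAG read the CUN box of leucine codons, as does tRNA-Leu-CAG, whereas tRNA-Leu-CAA and tRNA-Leu-TAA read UUG and UUA. tRNA-Leu-AAG had 1155 RPM at the lowest, 2269 at the median and 6907 at the highest in plasma, and 1362, 2183 and 8987 RPM in EVs. These ranges were nearly the same, yet the EV value was higher in 11 of 14 mice by RPM, in 13 of 14 after TMM scaling and in all 14 as a share of tRNA counts (medians 0.535% in EVs and 0.244% in plasma). Its log2 change of 0.83 ± 0.31 missed the threshold (adjusted p = 0.0616) and passed with the mouse as a block (0.83 ± 0.17, adjusted p = 0.00108) and in DESeq2 (0.84, adjusted p = 0.0256). Scaled by the RPM number it was 0.30 (adjusted p = 0.403). tRNA-Leu-TAG had a log2 change of 0.60 ± 0.32 (adjusted p = 0.213) and passed with the block (0.62, adjusted p = 0.0097), with 11 of 14 mice higher in EVs after TMM scaling and medians of 0.270% and 0.141% of tRNA counts in EVs and plasma. By RPM it was higher in EVs in 5 of 14 mice, and scaled by the RPM number its log2 change was 0.081 (adjusted p = 0.837).

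tRNA-Leu-CAG was the most abundant anticodon of the 11, with 3010 RPM at the lowest, 9453 at the median and 42190 at the highest in plasma and 2622, 5412 and 26417 RPM in EVs. By RPM it was lower in EVs in 13 of 14 mice, while as a share of tRNA counts it was higher in EVs in 13 of 14. After TMM scaling it had a log2 change of -0.05 ± 0.35 (adjusted p = 0.963). tRNA-Leu-CAA behaved alike, with a log2 change of -0.16 ± 0.35 (adjusted p = 0.845), medians of 3094 RPM in plasma and 1870 RPM in EVs, and a lower RPM in EVs in 12 of 14 mice. tRNA-Leu-TAA was scarce, with medians of 103 RPM in plasma and 102 RPM in EVs and a log2 change of 0.26 ± 0.27 (adjusted p = 0.59).

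**Figure D2:**
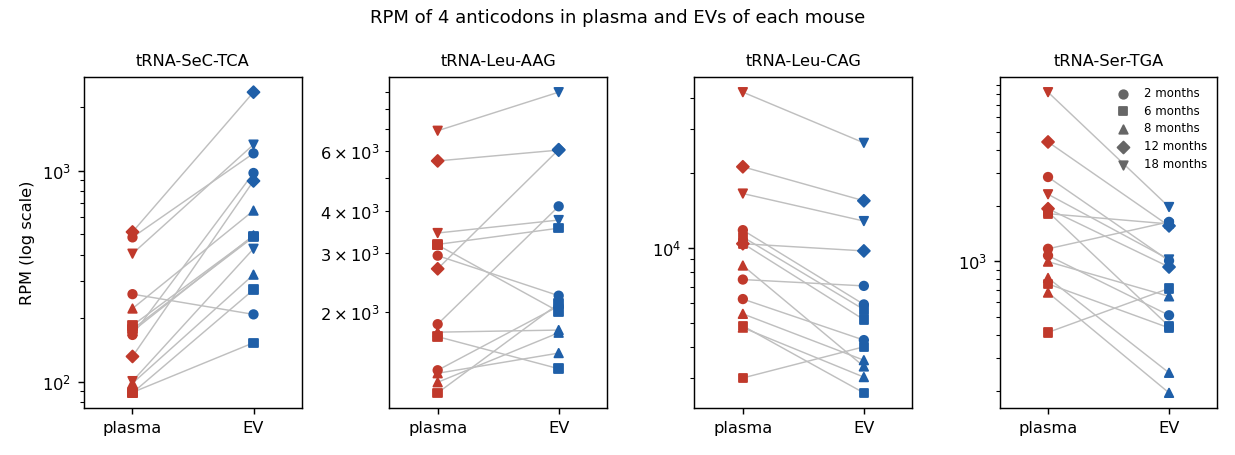
RPM (log scale) of 4 anticodons in plasma (red) and EVs (blue), with a line for each of 14 mice and a symbol for each age. tRNA-SeC-TCA rises toward EVs in 13 mice, tRNA-Leu-AAG in 11, whereas tRNA-Leu-CAG is lower in EVs in 13 mice and tRNA-Ser-TGA in 12.

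Among the tRNA-Ser anticodons, tRNA-Ser-GCT reads the AGU and AGC codons, and AGA, CGA, GGA and TGA belong to the UCN box. tRNA-Ser-GCT, the most abundant of them, had 1373, 3356 and 8676 RPM at the lowest, median and highest in plasma and 1543, 3139 and 9486 RPM in EVs. Its RPM was higher in EVs in 6 of 14 mice, but its share of tRNA counts was higher in all 14 (medians 0.650% and 0.345%). The log2 change was 0.52 ± 0.35 (adjusted p = 0.352), and it passed the threshold with the mouse as a block (0.50, adjusted p = 0.0353), but not when the 2 mice paired by replicate number only were left out of that fit (adjusted p = 0.109). The opposite side of the group was tRNA-Ser-TGA, with 413, 1491 and 8221 RPM in plasma and 195, 824 and 1969 RPM in EVs and a lower RPM in EVs in 12 of 14 mice. Its log2 change was -0.60 ± 0.38 (adjusted p = 0.319), and -0.48 ± 0.17 (adjusted p = 0.062) with the block, which passed without those 2 mice (-0.59, adjusted p = 0.0396). As a share of tRNA counts it was higher in EVs in 7 mice and lower in 7.

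tRNA-Ser-AGA had a log2 change of -0.18 ± 0.34 (adjusted p = 0.805), with medians of 3107 RPM in plasma and 1847 RPM in EVs. tRNA-Ser-CGA (0.03 ± 0.29, adjusted p = 0.971) and tRNA-Ser-GGA (0.19 ± 0.36, adjusted p = 0.809) were less abundant, with medians of 458 and 16.5 RPM in plasma and 326 and 9.58 RPM in EVs. Within tRNA-Ser the log2 changes thus ran from TGA, the lowest, over AGA, CGA and GGA to GCT, and the SEs of neighbours in this order overlapped.

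How many anticodons were called depended on what the counts were set against and on whether the 2 libraries of a mouse were paired. The fit with the mouse as a block kept TMM scaling. With the mouse as a block, 4 of 11 were called higher (tRNA-SeC-TCA, tRNA-Leu-AAG, tRNA-Leu-TAG and tRNA-Ser-GCT) and 0 lower, over a background of 11.0% higher and 7.29% lower, while among the other 40 tRNA anticodons 2 were called higher and 14 lower. Scaled to the tRNA counts of each library, so that a change is one in the share of tRNA counts, these 4 were called higher and 0 lower, against 10.6% and 1.61% of all features and 3 and 0 of the other 40 tRNA anticodons. The log2 changes were then 2.72 for tRNA-SeC-TCA (adjusted p = 5.1e-08), 1.25 for tRNA-Leu-AAG (adjusted p = 0.000135), 1.04 for tRNA-Leu-TAG (adjusted p = 0.00179) and 0.91 for tRNA-Ser-GCT (adjusted p = 0.0036). Scaled by the RPM number, tRNA-SeC-TCA was called higher (1.70, adjusted p = 0.000977) and tRNA-Ser-TGA lower (-1.03, adjusted p = 0.0359), over a background of 4.58% higher and 19.1% lower, and 17 of the other 40 tRNA anticodons were called lower. DESeq2 called 2 members higher and 0 lower, against 11.4% and 7.55% of features. The block without the 2 mice paired by replicate number only called 3 and 1, against 9.60% and 5.80%. The block scaled to tRNA counts called 7 and 0, against 23.2% and 2.55% of features and 11 and 1 of the other 40 tRNA anticodons. Scaling to tRNA counts and by the RPM number moved the median log2 change of all features to 0.47 and -0.45. tRNA-SeC-TCA was called under each of these scalings and when each mouse was left out in turn (2.14 to 2.42, adjusted p = 0.000459 to 0.00372).

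**Figure D3:**
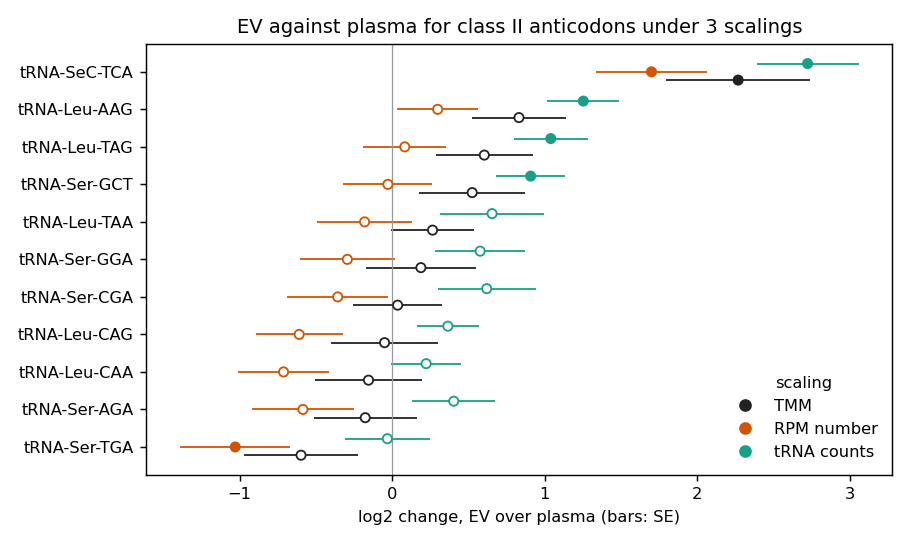
Log2 change of EV over plasma (x axis, bars are the SE) for the 11 anticodons under TMM scaling (black), scaling by the RPM number (orange) and scaling to tRNA counts (green). Filled points have an adjusted p under 0.05 (edgeR). The scaling shifts all anticodons in the same direction, and tRNA-SeC-TCA is filled under all 3.

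The single rows showed whether copies of 1 anticodon moved alike. Fitted as separate rows, 5 of the 49 were called higher and 1 lower in EVs, against 10.0% and 7.08% of 22323 features, and 9 had an unadjusted p under 0.05, as did 28.3% of features. After TMM scaling the 6 rows changed in the same direction in at least 12 of 14 mice. They were tRNA-SeC-TCA-1-1 (2.27), the 3 identical copies tRNA-Leu-AAG-1-1 to 1-3 (0.88, adjusted p = 0.0411), tRNA-Leu-TAA-3-1 and tRNA-Leu-TAA-4-1. By RPM the EV value was higher in 13 of 14 mice for tRNA-SeC-TCA-1-1 and in 11 for each tRNA-Leu-AAG copy. It was higher in 10 for tRNA-Leu-TAA-3-1 and in 1 for tRNA-Leu-TAA-4-1. The 3 tRNA-Leu-AAG copies missed the threshold scaled by the RPM number (0.35, adjusted p = 0.316) and without any 1 of 8 mice (2 months replicates 2 and 3, 6 months replicate 1, 8 months replicates 1 and 3, 12 months replicate 1 and 18 months replicates 1 and 2), with adjusted p values from 0.0256 to 0.0885 over all left-out mice. With the block, 16 of the 49 rows were called higher and 4 lower, against 11.1% and 7.53% of features and 22 and 87 of the 358 other tRNA rows. Scaled by the RPM number 1 row was called higher and 4 lower, against 4.52% and 19.5% of features, and scaled to tRNA counts 16 and 0, against 10.8% and 1.55%.

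Of the 4 tRNA-Leu-TAA rows, the 2 called ones moved in opposite directions, which the anticodon sum did not show. tRNA-Leu-TAA-3-1 had 5.35, 18.8 and 45.9 RPM at the lowest, median and highest in plasma and 6.98, 24.6 and 79.1 RPM in EVs, with a log2 change of 1.20 ± 0.28 (adjusted p = 0.00217, higher in 14 of 14 mice after TMM scaling). By RPM it was higher in EVs in 10 of 14 mice. tRNA-Leu-TAA-4-1 had 7.44, 19.6 and 64.0 RPM in plasma and 1.71, 6.29 and 14.8 RPM in EVs, with a log2 change of -1.15 ± 0.30 (adjusted p = 0.00579, lower in 13 of 14 mice). Within the anticodon, the first row took 15.2% ± 4.59 of the counts in plasma and 27.6% ± 3.09 in EVs, and the second 18.2% ± 8.79 and 6.80% ± 3.79 (SD, n = 14), which does not depend on the scaling. The first share was higher in EVs in 14 of 14 mice and the second in 1 of 14. These rows are thin, with 7 to 709 and 14 to 426 counts per library. Scaled by the RPM number the first missed the threshold (0.72, adjusted p = 0.117), as did the second when scaled to tRNA counts (-0.84, adjusted p = 0.076).

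Rows of the other anticodons diverged less. In tRNA-Leu-CAA the 4 rows had log2 changes from -0.18 to -0.14. In tRNA-Leu-CAG the row 4-1 stood at 0.55 ± 0.36 while the other rows lay between -0.17 and -0.003. In tRNA-Ser-AGA the row 1-1, the one whose counts matched those of tRNA-Ser-TGA-2-1, was at -0.65 ± 0.38 (adjusted p = 0.268), the 6 identical rows at -0.06 and the row 3-1 at 0.42. tRNA-Ser-TGA-2-1 was at -0.65 as well and took 47.2% of the tRNA-Ser-TGA counts in plasma, as did its identical copy 2-2, whereas tRNA-Ser-TGA-1-1 had a log2 change of 0.12 ± 0.32. The value of tRNA-Ser-TGA was therefore mostly that of counts also found on a tRNA-Ser-AGA row.

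**Figure D4:**
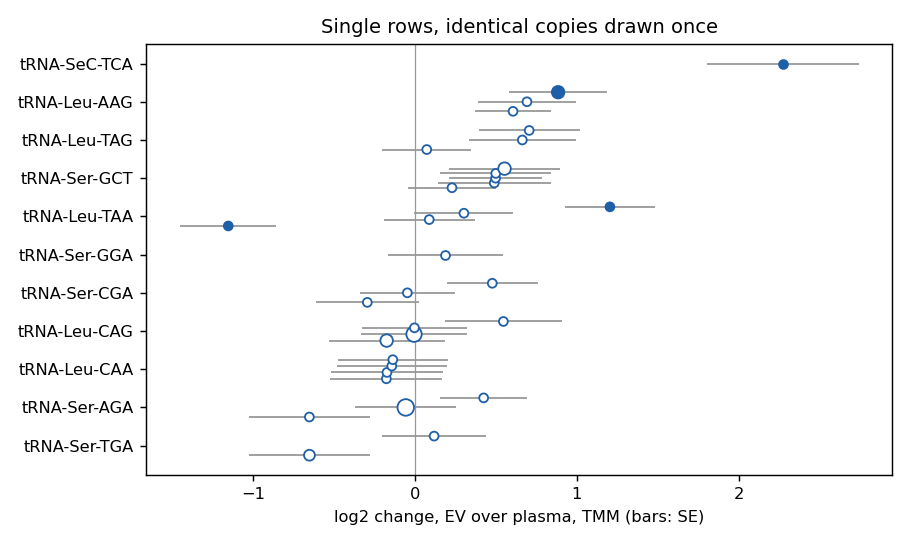
Log2 change of EV over plasma (x axis, TMM scaling, bars are the SE) for single rows grouped by anticodon (y axis), with copies of identical counts drawn once and larger points for more copies. Filled points have an adjusted p under 0.05 (edgeR). In tRNA-Leu-TAA 1 row lies at 1.20 and another at -1.15.

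With age, none of the 11 anticodons was called. The age trend, a log2 slope per month, was fitted in each fraction with edgeR. In plasma 3 of 21276 features (0.0141%) were called over all RNAs, in EVs 0 of 18214 (0%), and no member was among them. DESeq2 called 0 members in both fractions too, with 35 and 10 features in all. At an unadjusted p under 0.05, 7 of 11 members and 13 of the 40 other tRNA anticodons had a slope in plasma, and 4 and 13 in EVs, against 7.01% and 5.28% of all features. Scaled by the RPM number 9 members and 23 of the other tRNA anticodons had one in plasma, against 1459 of 21276 features. In EVs 4 and 14 had one under this scaling, against 467 of 18214 features. Scaled to tRNA counts 2 members in plasma and 0 in EVs had one, and without the 18-month mice 1 and 0. The slopes of the members were above 0 in both fractions. They ranged from 0.001 (tRNA-SeC-TCA) to 0.13 (tRNA-Leu-CAA) in plasma, with a median of 0.095 against 0.069 for the other tRNA anticodons and 0.0059 for all features, and from 0.0073 (tRNA-Ser-CGA) to 0.14 (tRNA-Leu-CAA) in EVs, with medians of 0.075, 0.083 and -0.0033.

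The steepest slopes depended in part on 1 mouse. tRNA-Leu-CAA in plasma was at 3960, 2551 and 2881 RPM at 2 months, 4433, 2148, 1178 and 4326 at 6 months, 2713, 2026 and 2004 at 8 months, 3307 and 7784 at 12 months and 6399 and 19978 at 18 months. In EVs it was at 2108, 1562 and 2888, then 1852, 943, 1603 and 1887, then 973, 1164 and 1140, then 2893 and 4677, and 4283 and 12187 RPM. Replicate 2 at 18 months was by far the highest in both fractions, and in both the 8-month mice were among the lowest. The slope of 0.13 ± 0.038 in plasma (adjusted p = 0.598) was 0.063 without this mouse and 0.051 without both 18-month mice, and that of 0.14 ± 0.042 in EVs (adjusted p = 0.68) was 0.074 and 0.066. tRNA-Leu-CAG had slopes of 0.11 ± 0.040 in plasma (adjusted p = 0.667) and 0.14 ± 0.044 in EVs (adjusted p = 0.738), and 0.066 and 0.095 without this mouse. tRNA-Ser-GCT had slopes of 0.052 ± 0.041 in plasma (adjusted p = 0.854) and 0.083 ± 0.046 in EVs (adjusted p = 0.997). For tRNA-SeC-TCA they were 0.001 ± 0.048 and 0.064 ± 0.062 (adjusted p = 1.00 and 0.997).

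**Figure D5:**
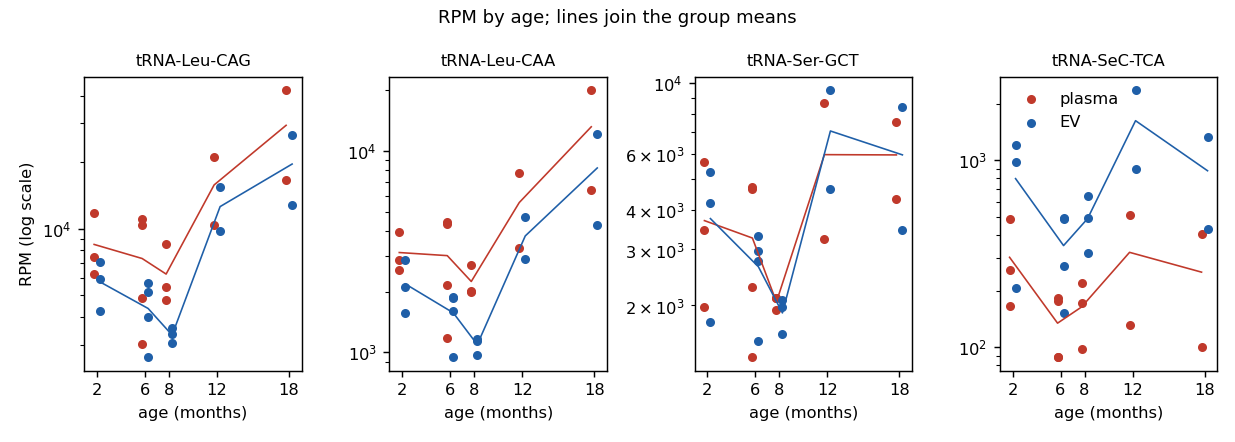
RPM (log scale) by age in months for 4 anticodons. Points are single libraries of plasma (red) and EVs (blue), drawn slightly apart, and lines join the group means. tRNA-Leu-CAG and tRNA-Leu-CAA are lowest at 8 and highest at 18 months in both fractions, where 1 of 2 mice stands far above the other.

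Single rows did not add a call with age. The smallest p of the 49 in plasma belonged to tRNA-Leu-TAA-4-1 (slope 0.11 ± 0.028, adjusted p = 0.389), followed by tRNA-Leu-CAA-2-1 and tRNA-Leu-CAA-3-1 (both 0.13). In EVs it belonged to tRNA-Leu-TAG-2-1 (0.11 ± 0.031, adjusted p = 0.645), followed by the same 2 tRNA-Leu-CAA rows (both 0.14). The difference of the age trend between fractions was called for 0 members and for 0 of 21967 features (0%), while DESeq2 called 2 features and 0 members. An unadjusted p under 0.05 was found for 894 features (4.07%) and 0 members. With the mouse as a block it was found for 1342 of 21967 features, 2 members and 0 of the 40 other tRNA anticodons, and 0 features were called. In the main fit the largest difference in size was that of tRNA-Leu-TAA, with a slope difference (EV minus plasma) of -0.082 ± 0.049 per month (adjusted p = 1).

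Spearman's rho of RPM with age gave the same picture over 14 libraries a fraction. In plasma 1 of 11 members exceeded 0.5 and 0 were under -0.5, against 5.86% and 2.13% of 21276 features and 9 and 0 of the 40 other tRNA anticodons. The member was tRNA-Leu-TAA, with rho = 0.60 and Pearson's r = 0.71 (permutation p = 0.0276 and 0.00489, adjusted p = 0.86 and 0.902 over all features). Its RPM at 12 and 18 months was 276, 289, 216 and 249, above that of all younger mice, which lay between 44.0 and 208. The tRNA share of plasma counts was likewise higher at 12 and 18 months than in all younger mice, and its part was not tested. Without the 18-month mice rho was 0.41 (n = 12). As a share of tRNA counts tRNA-Leu-TAA had rho = 0.33 and r = 0.21 in plasma (permutation p = 0.239 and 0.479, adjusted p = 1 and 0.95) and rho = -0.27 and r = -0.31 in EVs (permutation p = 0.346 and 0.283, adjusted p = 0.822 and 0.739). In EVs 0 members passed either limit, against 1.60% and 1.22% of 18214 features, and tRNA-Leu-TAA had rho = -0.02. The adjusted permutation test called 0 features in either fraction, with 1117 and 317 at an unadjusted p under 0.05.

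The measure mattered for the tRNA-Leu anticodons. tRNA-Leu-CAG had rho = 0.42 and r = 0.70 with age in plasma and rho = 0.39 and r = 0.76 in EVs (adjusted p = 0.86, 0.902, 1 and 1.00 by permutation), and without the 18-month mice rho fell to 0.076 and 0.029. As a share of tRNA counts, rho was 0.65 in plasma and 0.67 in EVs (permutation p = 0.0139 and 0.0111, adjusted p = 1 and 0.822) with r = 0.68 in both (permutation p = 0.00619 and 0.00779, adjusted p = 0.95 and 0.739). Without the 18-month mice the rho of the share was 0.54 and 0.53 (n = 12). Its mean share rose from 0.644% ± 0.147 at 2 months to 0.949% ± 0.20 at 6 months and 0.973% ± 0.130 at 8 months in plasma, and from 0.863% ± 0.217 to 1.14% ± 0.164 and 1.39% ± 0.278 in EVs (SD, n = 3, 4 and 3). At 12 months it was 0.791% and 1.02% in plasma and 1.23% and 1.02% in EVs, and at 18 months 1.01% and 1.84% in plasma and 1.35% and 2.14% in EVs. In plasma the 3 mice of 2 months lay between 0.476% and 0.748% and the 4 of 6 months between 0.720% and 1.20%, so that adjacent ages overlapped.

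The anticodon most like each isotype's most abundant one was found by Spearman's rho of RPM over all 28 libraries, which share their depth and tRNA share, and is given as a description. For tRNA-Leu-CAG these were tRNA-Leu-CAA (0.98), tRNA-Asp-GTC (0.96) and tRNA-Ala-CGC (0.94). For tRNA-Ser-GCT they were tRNA-Asn-GTT (0.93), tRNA-Leu-TAG (0.93) and tRNA-Trp-CCA (0.91). tRNA-SeC-TCA had no partner as close, with tRNA-Leu-AAG (0.55), tRNA-Leu-TAG (0.43) and tRNA-Met-CAT (0.41) at the head of its list.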

How the data were processed

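The small RNA libraries (28) came from the pellet and the supernatant of 14 mice. Estimated counts, without normalization, were deposited by the authors. They also deposited a signal table in RPM, in which every count was divided by 1 number per library. What that number counts, the aligner, the annotation release and the rule for reads with several matches were not given in the sources used here. The labels name mm10. Groups came from the labels. Counts were rounded (member counts were all whole), tRNA rows were summed by anticodon, and features with at least 1 RPM in at least 2 of 14 libraries of a fraction were fitted with edgeR 4.0.16 (TMM, glmQLFit and glmQLFTest, R 4.3.3), Benjamini-Hochberg adjusted over all features at 0.05. DESeq2 1.42.0 was the other tool. Correlations with age were tested two-sided with 100000 permutations. The scripts were tested on simulated data.

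Both fractions of a mouse pair by label code, except 2 mice of 2 months paired by replicate number. Each of their 2 plasma labels names both mice and does not tell them apart. Without these mice the class II share of tRNA counts was higher in EVs in 12 of 12 mice (mean log2 ratio 0.57). Deviations of 51 anticodons from the group means correlated within mice at -0.0517 to 0.705, over 0.1 in 13 of 14 mice, and 8 of 10 mice at ages with more than 2 mice were closest to themselves. At ages with 2 mice the deviations mirror each other, so that both mice share 1 value (0.493 at 12 and 0.682 at 18 months). The 14 values are therefore not all independent. The members and lists were chosen with earlier results of these data known. All 11 anticodons were reported. Single rows were to be chosen by highest mean RPM within an anticodon, by the largest called changes alike in at least 12 mice after TMM scaling and by the 3 smallest p of the age trend in each fraction. Not all rows with the highest mean RPM are described above, and other rows are named where copies of an anticodon diverged or shared counts. Alternatives were other scalings, filters and tools, left-out mice and the mouse as a block. Other gene sequences are not reported here.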

Additional observations from a re-analysis of the deposited data

Results flagged for a closer look

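In the plasma of 6 months, the group of 4 mice, tRNA-Leu-TAA of replicate 4 stood apart from the others by Dixon's test, with 208 RPM against 88.2 to 107 RPM in the other 3 mice. Its gap to the nearest value was 0.841 of the whole range, above the critical value for 4 samples. The EV library of the same mouse also had the highest tRNA-Leu-TAA of its group, 247 RPM. It was 1 flag among 24 groups of 4 tested, and chance flags about 1 in 20.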

How the results depend on the processing

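Alternatives bore mostly on the comparison of EVs with plasma. Of 11 anticodons, 1 was called higher in EVs, 2 in DESeq2, 4 scaled to tRNA counts (also 4 with identical copies counted once), 4 with the replicate block, 3 in that block without the 2 mice paired by number only, and 7 in the block scaled to tRNA counts, where 23.2% of all features were called higher. Called lower were 0, or 1 scaled by the RPM number and 1 in the block without those 2 mice. Without 1 mouse the higher calls ranged from 1 to 2 (2 without 2 months replicate 1, 8 months replicate 2 or 12 months replicate 2, when tRNA-Leu-AAG passed) and the lower calls were 0. Of the single rows, 5 were called higher and 1 lower, 16 and 4 with the replicate block (11.1% and 7.53% of features), 1 and 4 scaled by the RPM number (4.52% and 19.5%) and 16 and 0 scaled to tRNA counts (10.8% and 1.55%). Without 1 mouse these were 2 to 6 and 1, the lowest without 2 months replicate 2 or 3, 6 months replicate 1, 8 months replicate 1 or 3, 12 months replicate 1 or either 18-month mouse, when the 3 identical tRNA-Leu-AAG rows missed the threshold. The mean log2 ratio of the class share turned to -0.41 as a share of all counts and to -0.34 in RPM, and ranged from 0.58 to 0.66 without 1 mouse. It was 0.65 with identical copies counted once and 0.55 without tRNA-Pro.

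Directions turned for small changes, of which 1 was called. For EVs against plasma these were, scaled to tRNA counts, tRNA-Leu-CAA (0.22), tRNA-Leu-CAG (0.36) and tRNA-Ser-AGA (0.40), with identical copies counted once as well 0.22, 0.38, 0.19 and tRNA-Ser-TGA (0.00015), and in the block scaled to tRNA counts 0.24, 0.37 (called) and 0.30. Scaled by the RPM number they were tRNA-Leu-TAA (-0.18), tRNA-Ser-CGA (-0.36), tRNA-Ser-GCT (-0.029) and tRNA-Ser-GGA (-0.29). tRNA-Ser-CGA was at -0.091 under the stricter filter of 5 RPM and at -0.052 in the block without the 2 mice. Without 1 mouse the range spanned 0 for tRNA-Leu-CAG (-0.13 to 0.056) and tRNA-Ser-CGA (-0.068 to 0.10), and for the age slopes of tRNA-SeC-TCA in plasma (-0.044 to 0.055) and tRNA-Leu-TAA in EVs (-0.0023 to 0.045). The age slope of tRNA-SeC-TCA in plasma was -0.00055 in DESeq2, -0.0053 in libraries of at least 2000000 counts, -0.11 on log2 of age, -0.0034 without a filter, -0.018 without the 18-month mice, -0.051 scaled to tRNA counts and -0.061 with identical copies counted once as well. Under these 2 scalings tRNA-Ser-GCT had -0.0039 and -0.014 in plasma and -0.0055 and -0.014 in EVs, tRNA-SeC-TCA -0.029 and -0.037 in EVs and tRNA-Leu-TAA -0.067 and -0.073 in EVs (-0.024 on log2 of age). The difference of the slopes was then -0.0056 and -0.0031 for tRNA-Leu-CAG, -0.0092 and -0.0068 for tRNA-Leu-CAA (-0.0028 by the RPM number) and -0.0016 and -0.00039 for tRNA-Ser-GCT.

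No member was called with age or in the difference between fractions under any alternative run, leaving out 1 mouse included (0 throughout). Members with rho over 0.5 in plasma were 1, 0 on TMM-scaled counts, 0 without the 18-month mice, and 1 to 7 without 1 mouse (7 without 2 months replicate 1, 2 without 8 months replicate 1 or 3). In EVs they were 0, and 1 as a share of tRNA counts. Apart from those named, the replicate block changed no call, and it added none in the difference of the age trends. The alternatives with identical copies counted once, in the block scaled to tRNA counts and without tRNA-Pro were chosen after seeing the data. No EV library was under 2000000 counts, so that this alternative was not run there. The cause of these changes was not tested.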
